A study of Mus musculus with 8 samples.

Results

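RNA-seq of mouse germline stem (GS) cells was examined in the 4 control lines of a series of 8 lines. GS cells are cultured spermatogonia that keep spermatogonial stem cell activity and self-renew in medium with GDNF and FGF2. The 4 control lines, numbered 29, 37, 44 and 45, were labelled as wild type, untreated and derived from F1 mice born after natural mating, on a B6 background. The other 4 lines came from mice born after sperm injection and were not compared here. All columns that the label "control" marks were taken, so the choice of lines used no measured value. According to the study's methods, the lines were started from spermatogonia of mature testes that had been sorted on the surface protein CD9, so the measured cells had passed through a sort and through culture. In the study's supplement the same numbers label separate F1 mice, while the litters are not given, so n counts lines, and the spread given below is the spread between these 4 lines. The titles came in a pair of styles, 1 shared by lines 29 and 37 and the other by lines 44 and 45, and the labels name other software versions for each style.

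Spermatogonial stem cells keep sperm production going through life by renewing themselves and by giving rise to differentiating spermatogonia, which enter meiosis and then become spermatids and sperm. GDNF, made by somatic cells of the testis, acts on these cells through the receptor pair GFRA1 and RET, and FGF2 acts through FGF receptors. Both signals feed the transcription factors ETV5, BCL6B, LHX1 and EGR genes that are known for self-renewal. Germ cells as a whole are set apart by RNA-binding proteins and by the piRNA pathway, in which small RNAs and PIWI proteins hold transposons in check.

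Levels are given as FPKM, reads per kilobase of gene scaled to the library, so that genes of different length can be compared. Values after ± are the SD over the 4 lines, and 4 values in a row are those of lines 29, 37, 44 and 45 in that order. The reads recovered per line ranged from 24246710 to 43456511, and 20280 to 20716 genes were above 0 per line. Of 31010 genes listed, 12009 (38.7%) had a mean of at least 1 FPKM, 5478 of at least 10 FPKM, 307 of at least 100 FPKM and 10 of at least 1000 FPKM. At the other end, 8134 genes (26.2%) were listed at 0 in all 4 lines. In a gene of 1 kb, 3 reads were worth 0.0680 to 0.120 FPKM, which is the level that a 0 allows for counting error alone. Across the 12009 genes at 1 FPKM or more, the correlation of log2(FPKM + 1) ranged from 0.9296 between lines 37 and 44 to 0.9678 between lines 29 and 37, a description over genes that share libraries. Lines 29 and 44 stood apart in fibroblast marker genes, which summed to 1977 and 1827 FPKM there and to 632 and 498 FPKM in lines 37 and 45, so the counts of the main lists are also given below for lines 37 and 45 alone. The median SD of a gene over the 4 lines was 0.22 on the log2(FPKM + 1) scale, against 0.04 from counting alone.

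As examples, promoters are shown of 3 germ cell genes high in the 4 lines and of 2 sperm chromatin genes listed at 0. They were chosen after their values were seen. Each is the 250 bases before the start site in the RefSeq table for GRCm38.p6, 5′ to 3′ on the gene's strand, and capitals mark CG dinucleotides, the sites of DNA methylation. Ddx4 lay at chr13:112652311-112652560, Mael at chr1:166238745-166238994, Dazl at chr17:50293621-50293870, Prm1 at chr16:10796824-10797073 and Prm2 at chr16:10792106-10792355, all on the minus strand.
Ddx4: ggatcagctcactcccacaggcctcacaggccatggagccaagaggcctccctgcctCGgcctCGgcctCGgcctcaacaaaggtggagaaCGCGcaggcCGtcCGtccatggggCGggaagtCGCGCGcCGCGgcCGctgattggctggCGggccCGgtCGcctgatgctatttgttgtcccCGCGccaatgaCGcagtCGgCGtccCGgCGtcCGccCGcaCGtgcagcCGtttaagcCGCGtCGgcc
Mael: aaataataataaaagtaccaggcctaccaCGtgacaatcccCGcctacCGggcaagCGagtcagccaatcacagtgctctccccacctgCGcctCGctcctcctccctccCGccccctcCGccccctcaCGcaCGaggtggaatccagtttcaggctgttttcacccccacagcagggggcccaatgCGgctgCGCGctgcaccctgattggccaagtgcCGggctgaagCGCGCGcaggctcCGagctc
Dazl: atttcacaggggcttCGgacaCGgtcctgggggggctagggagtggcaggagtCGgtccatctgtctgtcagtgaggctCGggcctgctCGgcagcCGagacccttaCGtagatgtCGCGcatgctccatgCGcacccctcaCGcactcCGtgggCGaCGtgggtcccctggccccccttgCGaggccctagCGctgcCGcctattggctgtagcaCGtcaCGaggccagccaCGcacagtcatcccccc
Prm1: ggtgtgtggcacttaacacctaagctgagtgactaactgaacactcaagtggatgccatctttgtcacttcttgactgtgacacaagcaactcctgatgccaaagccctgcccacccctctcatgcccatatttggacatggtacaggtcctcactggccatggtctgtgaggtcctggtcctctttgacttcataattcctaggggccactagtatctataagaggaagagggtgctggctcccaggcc
Prm2: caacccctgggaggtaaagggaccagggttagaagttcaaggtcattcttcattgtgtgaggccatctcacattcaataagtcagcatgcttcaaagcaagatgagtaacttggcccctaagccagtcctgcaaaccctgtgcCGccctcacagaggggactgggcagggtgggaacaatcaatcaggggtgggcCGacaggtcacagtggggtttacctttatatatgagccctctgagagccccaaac
The expressed genes had 31 (Ddx4), 18 (Mael) and 20 (Dazl) CG dinucleotides in these bases, and Prm1 had 0 and Prm2 had 2. The median over all 32851 promoters of the table was 6, with a 10th percentile of 1 and a 90th percentile of 25. By the gene spans of GENCODE M21, which take in all transcripts, 165 of the 250 bases lay inside the gene for Ddx4, 3 for Mael, 16 for Dazl and all 250 for Prm1 and Prm2, so distances here are from the RefSeq start only. Each set of letters was searched on both strands. The E-box letters CACGTG, which read the same on both strands, occurred 29 bases before the start in Ddx4 and 223 bases before it in Mael, and 6.02% of all promoters held them. The letters TATAAA occurred 31 bases before the start in Prm2, on the strand opposite to the one printed, and in none of the other 4 sequences, and 12.4% of all promoters held them. The letters CCAAT were present in Ddx4, Mael and Dazl (33.8% of all promoters), in Dazl on the opposite strand alone. The letters GGGCGG were present in Ddx4, Mael and Prm2 (32.7% of all promoters), in Mael and Prm2 on the opposite strand alone. Such matches describe letters and not binding, and no methylation was measured in these files.

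The 4 lines carried the markers their label calls for. Ddx4, which encodes an RNA helicase of germ cells (chr13:112598333-112652475 in GRCm38), was at 173, 203, 274 and 229.5 FPKM in lines 29, 37, 44 and 45. Zbtb16, a transcriptional repressor needed to maintain spermatogonial stem cells (chr9:48654297-48836222), was at 50.5, 83.7, 66.4 and 61.3 FPKM. Gfra1, the GDNF co-receptor (chr19:58235604-58455909), was at 45.5, 42.2, 69.0 and 72.1 FPKM. All of these markers were high in every line, and the highest line was at most 1.71 times the lowest. Etv5, a transcription factor that responds to GDNF and FGF2 (chr16:22381309-22439719), was at 31.1, 35.7, 104 and 87.1 FPKM. Lines 44 and 45 were above lines 29 and 37 for Etv5, and the extremes differed by 3.33-fold.

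All 30 germ cell genes of the list had a mean of at least 1 FPKM, 25 reached 10 FPKM and 11 reached 100 FPKM. The median of the list was 58.8 FPKM, whereas the median of all genes at 1 FPKM or more was 8.67 FPKM. The highest was Dazl, whose protein binds mRNAs in germ cells, at 257, 302, 420.4 and 399 FPKM in lines 29, 37, 44 and 45. Tex19.1, a germ cell gene that restrains transposons, followed at 264, 381, 374 and 186 FPKM, and its close copy Tex19.2 makes the assignment of its reads uncertain. Taf7l, a germ cell form of a general transcription factor subunit, was at 244 ± 39.5 FPKM. Dmrt1, which controls the choice between mitosis and meiosis, was at 155, 171, 154 and 152 FPKM, nearly the same in all lines. Of the 30 genes 3 (10.0%) ranged over 2-fold, near the 13.3% of all 12009 genes. The median SD of the list on the log2(FPKM + 1) scale was 0.23, also near the 0.22 of all genes.

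Genes of the piRNA pathway formed a large part of the germ cell list. Mael, a factor of piRNA production, was at 214, 235, 261 and 193 FPKM in lines 29, 37, 44 and 45. Piwil2, a PIWI protein, was at 127, 157, 159 and 136 FPKM, whereas Piwil4, the PIWI protein that acts in the nucleus of fetal germ cells, was at 7.23 to 10.8 FPKM. The RNA helicase gene Mov10l1 was at 109 ± 7.98 FPKM, and the Tudor-domain genes Tdrd1, Tdrd9 and Tdrd5 were at 64.4 ± 6.01 FPKM, 35.9 ± 7.04 FPKM and 20.8 ± 2.59 FPKM. Asz1 and Gtsf1, which also act in this pathway, were at 59.5 ± 11.4 FPKM and 58.2 ± 8.57 FPKM. Thus the levels within the pathway spanned from under 10 FPKM for Piwil4 to over 200 FPKM for Mael. Genes of the earliest germ cells were the lowest of the list. Prdm1, Dppa3 and Tfap2c, which act in primordial germ cells, were at 2.21 ± 0.537 FPKM, 1.58 ± 0.888 FPKM and 1.24 ± 0.140 FPKM, although Nanos3 and Dnd1, which protect primordial germ cells from loss, were at 33.3 ± 6.68 FPKM and 49.9 ± 6.48 FPKM.

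**Figure D1:**
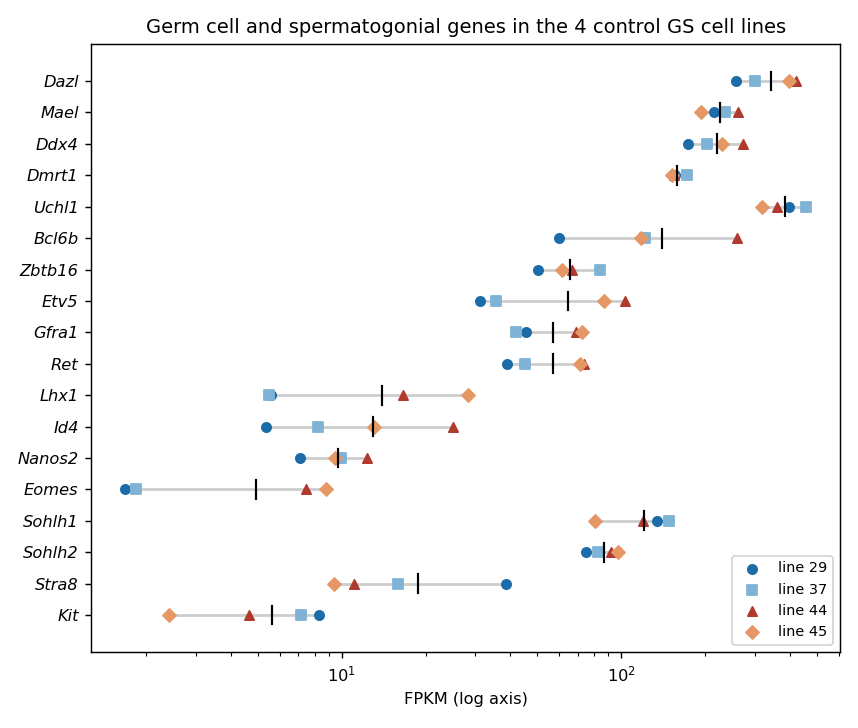
FPKM (log axis) of 18 germ cell and spermatogonial genes in control lines 29, 37, 44 and 45, with a point per line, a black tick at the mean and a grey bar from lowest to highest. Dmrt1 lay within 152 to 171 FPKM, and Bcl6b, Lhx1, Id4, Eomes and Stra8 were spread most widely.

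Of 36 genes of undifferentiated spermatogonia, 33 had a mean of at least 1 FPKM and 25 reached 10 FPKM. Uchl1, a ubiquitin hydrolase that marks spermatogonia, led at 384 ± 59.9 FPKM. The receptor gene Ret was at 38.9, 45.2, 73.7 and 71.0 FPKM in lines 29, 37, 44 and 45, close to its partner Gfra1 in every line. Among genes known to respond to GDNF, Bcl6b was at 59.9, 121, 260.3 and 117 FPKM. Lhx1, a homeobox gene of the same group, was at 5.602, 5.48, 16.5 and 28.3 FPKM. Line 29 was the lowest for Bcl6b and line 44 the highest, whereas lines 29 and 37 were nearly equal for Lhx1, below both other lines. Id4, a marker of the most stem-like spermatogonia, was at 5.38, 8.23, 25.0 and 13.0 FPKM. Eomes, a T-box gene found in a subset of stem cells, was at 1.68, 1.83, 7.47 and 8.81 FPKM, again with lines 44 and 45 above lines 29 and 37. Nanos2, an RNA-binding repressor of differentiation, was at 7.08, 9.90, 12.3 and 9.45 FPKM. Egr2, Ccnd2, which encodes a cyclin of the G1 phase, and Sall4, a zinc finger gene of stem cells, were at 49.2 ± 24.9 FPKM, 106 ± 42.1 FPKM and 34.9 ± 8.46 FPKM.

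The stem cell list varied more between lines than the germ cell list. Of its 33 members at 1 FPKM or more, 14 (42.4%) ranged over 2-fold, against 13.3% of all genes. One of these was Thy1, also a fibroblast marker, at 15.8, 4.56, 11.8 and 3.99 FPKM in lines 29, 37, 44 and 45, with lines 29 and 44 the highest. Between lines 37 and 45 alone, 9 of 35 members at 1 FPKM or more were over 2-fold apart, against 345 of 11868 genes. Sox3 and Utf1 ran the other way from Etv5 and Lhx1. Sox3, an X-linked transcription factor gene of early spermatogonia, was at 31.8, 34.2, 17.6 and 14.9 FPKM in lines 29, 37, 44 and 45. Utf1, a chromatin gene of spermatogonia and embryonic stem cells, was at 13.2, 12.8, 2.66 and 4.36 FPKM. Both were lower in lines 44 and 45 than in lines 29 and 37. The lowest members were Neurog3, a marker of spermatogonia about to differentiate, at 1.13, 0.551, 0.730 and 1.49 FPKM, Shisa6 at 0.365, 0.188, 0.689 and 2.34 FPKM and Pdx1 at 0.0700, 0.204, 0.707 and 0.630 FPKM in lines 29, 37, 44 and 45.

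Differentiation genes were present as well. Sohlh1 and Sohlh2, a pair of bHLH factors that drive differentiation, were at 121 ± 29.4 FPKM and 86.8 ± 10.1 FPKM. Stra8, which retinoic acid induces before meiosis, was at 38.7, 15.9, 11.1 and 9.40 FPKM in lines 29, 37, 44 and 45. Kit, the receptor of differentiating spermatogonia, was at 8.32, 7.17, 4.65 and 2.40 FPKM. For both Stra8 and Kit, lines 29 and 37 were above lines 44 and 45. Sohlh2 went the other way, at 74.8, 82.7, 92.2 and 97.6 FPKM in lines 29, 37, 44 and 45, as did Dmrtb1. Of the 9 list members at 1 FPKM or more, 5 had both of lines 44 and 45 below both of lines 29 and 37. Another 2 had both above. Among all 12009 genes these shares were 24.2% and 29.6%. Kit was well below Gfra1 and Ret in every line. Dnmt3b, a DNA methyltransferase, was at 13.4 ± 3.56 FPKM, and Dmrtb1, which acts at the exit from mitosis, was at 2.89 ± 1.15 FPKM.

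Of 31 meiosis genes matched, 27 had a mean of at least 1 FPKM and 14 reached 10 FPKM, with a list median of 6.97 FPKM. Among the 8 highest were genes of the synaptonemal complex, which holds homologous chromosomes together, and of meiotic cohesin. Sycp3 was at 67.7, 92.4, 136 and 110.3 FPKM in lines 29, 37, 44 and 45. Stag3 and Smc1b, which encode cohesin subunits of meiosis, were at 85.0 ± 15.0 FPKM and 76.1 ± 24.3 FPKM, and Sycp1, Syce1 and Syce2 were at 67.5 ± 16.8 FPKM, 49.3 ± 8.08 FPKM and 69.1 ± 5.82 FPKM. Tex11 and Rec114, which act in recombination, were also among these 8, at 62.3 ± 10.00 FPKM and 31.7 ± 2.68 FPKM, whereas Rec8, another cohesin gene of meiosis, was at 4.74 ± 0.738 FPKM. Dmc1, a strand exchange protein gene, was at 13.6 ± 3.54 FPKM, whereas Spo11, which makes the meiotic DNA breaks, was at 1.44, 2.77, 0.498 and 0.815 FPKM and Prdm9, which places them, at 1.02, 0.8002, 0.248 and 0.699 FPKM in lines 29, 37, 44 and 45. Meiob and Pgk2, a glycolysis gene of spermatocytes, were under 1 FPKM in every line, at 0.134 to 0.566 FPKM and 0.181 to 0.581 FPKM. Of the 27 genes, 5 (18.5%) ranged over 2-fold, against 13.3% of all genes.

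Spermatid genes were nearly all low. Of 25 genes, 5 had a mean of at least 1 FPKM and none reached 10 FPKM, and the list median was 0.0360 FPKM. The protamine genes Prm1, Prm2 and Prm3, the transition protein gene Tnp2 and the kinase gene Tssk2 were listed at 0 in all 4 lines. Tnp1, which encodes the other transition protein, was at 9.07, 7.52, 5.38 and 7.88 FPKM in lines 29, 37, 44 and 45. Tekt2, a flagellar gene, was at 4.05 to 5.50 FPKM, and Akap4, a gene of the sperm tail, was at 0.509 to 0.914 FPKM. The acrosome genes Spaca1 and Izumo1 were at 2.82 ± 1.51 FPKM and 1.42 ± 0.518 FPKM. In bulk RNA, fewer cells of a type and less RNA per cell cannot be told apart.

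Genes of the pluripotent state covered a wide range. Of 28 genes, 19 had a mean of at least 1 FPKM and 9 reached 10 FPKM, so that 10 lay between these levels. Lin28a, an RNA-binding protein gene shared by germ cells and embryonic stem cells, was at 50.8, 65.8, 67.7 and 57.4 FPKM in lines 29, 37, 44 and 45. Pou5f1, which encodes OCT4, was at 28.2, 26.3, 11.2 and 12.6 FPKM, with both of lines 29 and 37 above both of lines 44 and 45. Klf4 was at 31.0 ± 4.58 FPKM, Mycn at 17.4 ± 1.74 FPKM and Dppa5a, a gene with several close copies, at 19.8 ± 3.96 FPKM. At the low end, Nanog was at 0.0842, 0.0358, 0.0953 and 0.0404 FPKM in lines 29, 37, 44 and 45, and Sox2 at 0.643, 0.994, 1.37 and 0.551 FPKM. Prdm14, Tdgf1 and Fgf4 were at most 0.0884, 0.0306 and 0.00956 FPKM in any line.

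**Figure D2:**
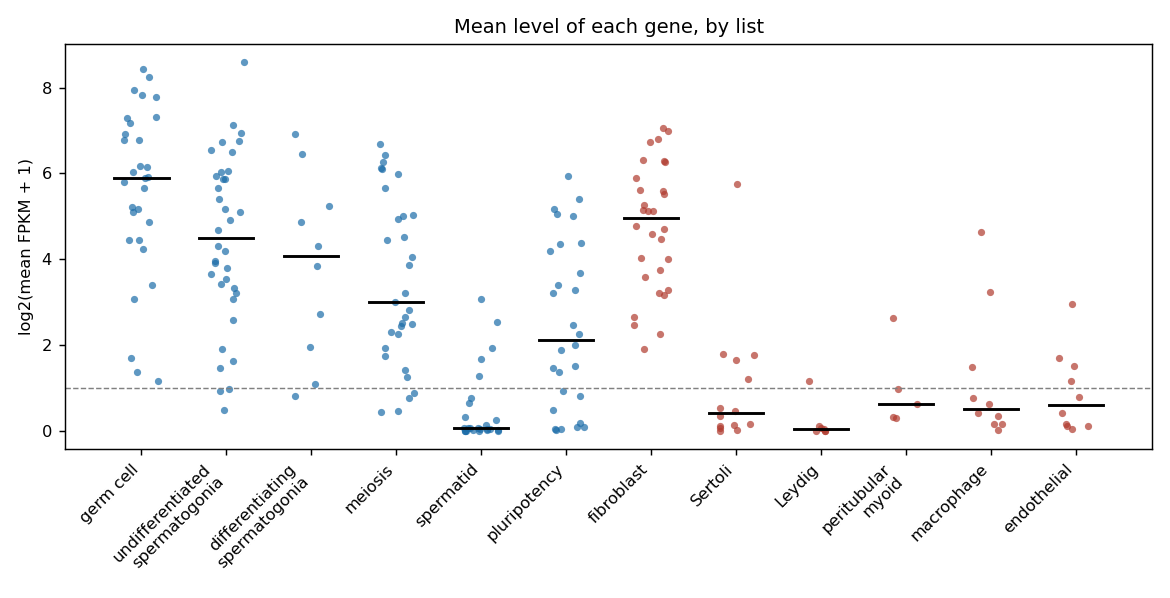
Mean level of each gene over the 4 control lines as log2(FPKM + 1), with a point per gene, a black bar at the list median and a dashed line at 1 FPKM, in blue for germ line and stem cell lists and in red for lists of other cells. Germ cell, spermatogonial and fibroblast lists lay high, and spermatid, Sertoli, Leydig, peritubular myoid, macrophage and endothelial lists had medians under 1 FPKM.

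The genes with the highest means included those of the mitochondrion, the ribosome and protein synthesis. The mitochondrial genes mt-Cytb and mt-Co1 had the highest means, at 4293, 7669, 4441 and 3671 FPKM and 4770.1, 6859, 4437 and 3493 FPKM in lines 29, 37, 44 and 45, with line 37 the highest for both. Rplp1, a ribosomal stalk gene, was at 1671 ± 202 FPKM, the elongation factor genes Eef1a1 and Eef2 at 1455 ± 128 FPKM and 892 ± 90.6 FPKM, and the chaperone gene Hsp90ab1 at 1087 ± 180.0 FPKM. Actb, cytoskeletal actin, was at 561, 605, 999 and 651 FPKM in lines 29, 37, 44 and 45. Also among the 25 highest were Mt2, a metal-binding protein gene, at 687 ± 78.6 FPKM, Ftl1, the ferritin light chain, at 596 ± 61.7 FPKM, Tuba3a, an alpha-tubulin of the testis with the near-identical copy Tuba3b, at 486 ± 125 FPKM, and Sdc4, a heparan sulfate proteoglycan gene, at 476 ± 110.4 FPKM. Ribosomal and elongation factor genes have many processed copies in the genome, so their levels depend on how shared reads were handled.

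Some of the 25 highest were not protein genes. Bc1, a small RNA of neurons and germ cells, was at 4901, 1939, 240.3 and 388 FPKM in lines 29, 37, 44 and 45, and lines 29 and 37 were far above lines 44 and 45. In line 29 it was above mt-Cytb and mt-Co1. Gm15564, an antisense locus, was at 88.3, 77.5, 1121 and 648 FPKM, with the pairs of lines the other way round. These genes differed 20.4-fold and 14.5-fold between their extremes. Among further noncoding RNAs, H19, an imprinted RNA, was at 151, 39.4, 246 and 167 FPKM. Malat1, a nuclear RNA, was at 41.1, 49.9, 3.60 and 12.8 FPKM. Across the table, 240 of 5592 lincRNA genes and 142 of 2952 antisense genes had a mean of at least 1 FPKM, compared with 11610 of 21678 protein-coding genes (53.6%). The library kit in the labels is not the one in the study's methods, so strand is uncertain and antisense values may include reads of the gene on the other strand.

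Housekeeping families were nearly complete. All 83 ribosomal protein genes were above 1 FPKM, with a median of 153.9 FPKM, and none ranged over 2-fold. Of 39 proteasome genes 38 were at 1 FPKM or more and 1 ranged over 2-fold (2.63%), and of 9 MCM genes, which license DNA replication, 9 were at 1 FPKM or more and 1 ranged over 2-fold (11.1%), against 13.3% of all genes. However, of 13 protein genes of the mitochondrial genome only 7 had a mean of at least 1 FPKM. The genes mt-Atp6, mt-Atp8, mt-Nd3 and mt-Nd4l were listed at 0 in all lines and mt-Co2 and mt-Co3 were above 0 in 1 line each. Every cell uses these genes, so a 0 in the table is given here only as listed and not as absence of the RNA.

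The most constant protein-coding genes at 10 FPKM or more were Chd1l, a chromatin remodeller, at 30.9, 30.4, 30.5 and 30.6 FPKM, Kat5, a histone acetyltransferase, at 17.1, 17.5, 17.2 and 17.2 FPKM, and Dctn6, a dynactin subunit, at 10.4, 10.5, 10.4 and 10.2 FPKM in lines 29, 37, 44 and 45. The antioxidant enzyme gene Gpx1 was at 79.1 ± 0.997 FPKM, and Pitpnb, a lipid transfer gene, at 33.4 ± 0.382 FPKM. These genes were chosen for small spread, so their evenness describes the choice.

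The transcription factor families held 634 genes, of which 343 had a mean of at least 1 FPKM, 140 reached 10 FPKM and 4 reached 100 FPKM. The highest were a mixture of immediate early genes and of germ cell regulators. Egr1, a zinc finger gene that growth factors induce, was at 133, 201, 234 and 194 FPKM in lines 29, 37, 44 and 45. Its relatives Egr4 and Egr2, the former known for a role in male fertility, were at 113, 146, 90.01 and 82.9 FPKM and at 49.2 ± 24.9 FPKM. Fos and Junb, partners in the AP-1 complex, were at 124, 67.9, 70.0 and 113 FPKM and at 93.2, 44.4, 129 and 57.8 FPKM. Thus Egr1 was highest in line 44, Egr4 in line 37 and Fos in line 29, and no line led throughout. Dmrt1, Sohlh1 and Sohlh2, described above, were also among the 10 highest. Tcf7 and Tcf3 were at 78.5 ± 14.0 FPKM and 72.1 ± 8.96 FPKM, and Jund was at 73.1 ± 15.7 FPKM.

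Single families were led by the following genes. Of 25 ETS genes, 15 were at 1 FPKM or more, led by Etv5 at 64.3 ± 36.4 FPKM and its close relative Etv4 at 23.9, 46.3, 33.0 and 36.3 FPKM in lines 29, 37, 44 and 45. The FOX family had 21 of 44 genes at 1 FPKM or more, led by Foxf1 at 37.2 ± 9.08 FPKM, Foxo3 at 34.7 ± 10.4 FPKM and Foxo1, which is needed for stem cell maintenance, at 28.9 ± 7.28 FPKM. Sox4 led the SOX family at 42.4 ± 11.3 FPKM, followed by Sox13 at 25.5 ± 2.85 FPKM and Sox3. Of the STAT genes, Stat3 was at 40.0, 42.7, 42.9 and 41.6 FPKM and varied little. The KLF family was broadly present, with 12 of 17 genes at 1 FPKM or more, and all 10 E2F family genes, which control the cell cycle, were at 1 FPKM or more. Smad4, the common partner of TGF-beta and BMP signalling, was at 24.5 ± 3.83 FPKM.

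Several families known from the patterning of somatic tissues had fewer members at 1 FPKM or more than the 53.6% of all protein-coding genes, although Foxf1, a mesoderm factor, led the FOX family. Of 39 HOX genes 9 (23.1%) had a mean of at least 1 FPKM, and all of these were HOXB genes. Hoxb7 was at 14.5, 8.41, 9.29 and 11.5 FPKM in lines 29, 37, 44 and 45 and Hoxb8 at 12.1, 6.71, 3.52 and 9.65 FPKM, and lines 29 and 45 were the highest for both. Of 6 GATA genes only Gata2 reached 1 FPKM, at 1.10 ± 0.161 FPKM, and none of the 7 CDX, GSX, PDX and MNX genes, which pattern gut and nerve tissue, did. Of 9 PAX genes only Pax7, which marks a rare subset of spermatogonia, reached 1 FPKM, at 2.13, 1.40, 1.495 and 1.90 FPKM. Of 5 ZIC genes 1 reached 1 FPKM, at a mean of 13.8 FPKM. The RHOX cluster, X-linked homeobox genes of the reproductive tract, had 11 of 34 genes at 1 FPKM or more. Rhox13 was at 27.1, 28.9, 25.5 and 30.6 FPKM, Rhox10 at 23.3, 22.2, 11.7 and 9.17 FPKM and Rhox1 at 16.2 ± 1.40 FPKM. Rhox10 was higher in lines 29 and 37 than in lines 44 and 45, while Rhox13 was even. The Rhox2 genes are near-identical copies, so their values are uncertain and are not given.

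Receptors were fewer and lower. Of 331 genes in the receptor lists 153 had a mean of at least 1 FPKM, 44 reached 10 FPKM and 1 reached 100 FPKM. That gene was Itgb1, an integrin subunit through which stem cells adhere to laminin, at 108, 94.1, 178 and 111 FPKM in lines 29, 37, 44 and 45. The integrin subunits Itga6, a surface marker of stem cells, Itga3 and Itgb5 were at 17.4 ± 3.75 FPKM, 10.7 ± 2.605 FPKM and 26.1 ± 5.74 FPKM. Itga5, a fibronectin receptor subunit, was at 8.96, 7.66, 44.6 and 9.31 FPKM, with line 44 apart from the others. Of 58 receptor tyrosine kinase genes 34 were at 1 FPKM or more. Epha2, an ephrin receptor, was the highest at 31.8, 45.9, 125 and 73.5 FPKM, followed by Ret and by Ptk7 and Ryk, a pair of Wnt co-receptors, at 51.1 ± 8.36 FPKM and 36.9 ± 6.29 FPKM. Erbb3 and Erbb2 were at 19.5 ± 5.88 FPKM and 13.4 ± 2.14 FPKM.

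The receptors and transporters for factors present in the medium were then followed. Of 18 such genes 12 were at 1 FPKM or more. Tfrc, the transferrin receptor, was at 58.8, 61.2, 97.8 and 114 FPKM in lines 29, 37, 44 and 45. The receptor lists above did not hold Tfrc. Fgfr1 was the main FGF receptor gene at 19.6, 16.5, 23.4 and 22.1 FPKM, whereas Fgfr3, Fgfr2 and Fgfr4 were at 0.887 to 1.57 FPKM, 0.540 to 1.25 FPKM and 0.205 to 0.577 FPKM. For insulin, Igf1r at 13.6, 16.8, 22.7 and 18.8 FPKM was above Insr at 1.30, 0.741, 1.98 and 1.51 FPKM in every line. Slc16a1, a lactate carrier, Slc23a2, which takes up ascorbic acid, and Slc5a6, which takes up biotin, were at 33.2 ± 5.57 FPKM, 28.4 ± 5.71 FPKM and 12.4 ± 1.28 FPKM. Although the medium held estradiol and progesterone, Esr1, Esr2 and Pgr were at 0.451, 0.314, 0.306 and 0.255 FPKM, 0.583, 0.298, 0.508 and 0.511 FPKM and 0.0398, 0.00469, 0 and 0.0159 FPKM in lines 29, 37, 44 and 45, all under 1 FPKM. Of the 12 genes at 1 FPKM or more, 10 were higher in both of lines 44 and 45 than in both of lines 29 and 37, a pattern that 29.6% of all 12009 genes showed, and 1 of 12 ranged over 2-fold.

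Among other GDNF family receptors, Gfra4 was at 5.78 ± 0.190 FPKM and Gfra3 at 5.37, 5.92, 1.67 and 1.71 FPKM in lines 29, 37, 44 and 45, with lines 29 and 37 the higher. Cytokine receptors were led by Ifnar1, an interferon receptor subunit, at 30.2, 32.6, 61.1 and 34.8 FPKM, and Il6st, the shared subunit of the IL-6 family, was at 17.4 ± 2.64 FPKM beside Lifr, its partner for LIF, at 6.32 ± 0.476 FPKM. In the TGF-beta family Bmpr1a, a BMP receptor, was at 22.3, 29.3, 42.1 and 37.01 FPKM, and Acvr2b and Tgfbr1 were at 12.3 ± 2.19 FPKM and 11.2 ± 0.803 FPKM. Nuclear receptors were led by Nr4a1 at 39.4 ± 9.15 FPKM and by the clock genes Nr1d2 and Nr1d1 at 33.5 ± 2.81 FPKM and 33.4 ± 8.03 FPKM. The retinoic acid receptor gene Rarg was at 14.9, 15.4, 7.80 and 8.13 FPKM and Rara at 8.29, 8.89, 12.8 and 10.3 FPKM. Rarg was higher in lines 29 and 37 and Rara in lines 44 and 45. Cxcr4, through which stem cells respond to CXCL12, was at 7.19, 6.94, 14.2 and 14.0 FPKM and was the only one of 22 chemokine receptor genes to reach 10 FPKM.

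**Figure D3:**
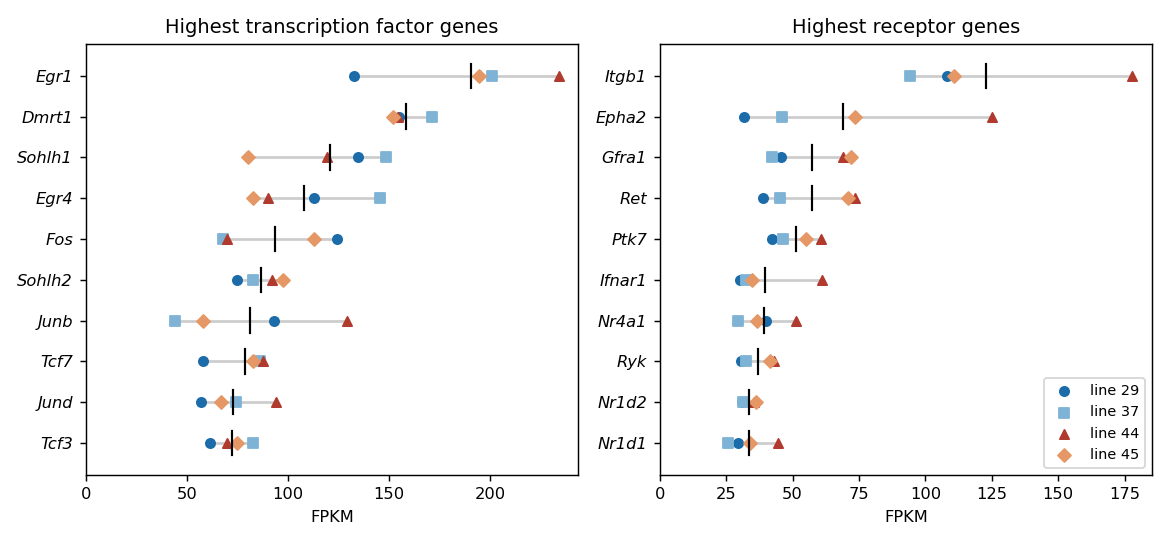
FPKM of the 10 highest transcription factor genes (left) and the 10 highest receptor genes (right), with a point per control line, a black tick at the mean and a grey bar from lowest to highest. Dmrt1 was held within 152 to 171 FPKM, while Epha2 ran from 31.8 FPKM in line 29 to 125 FPKM in line 44.

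By type, 2823 of 5592 lincRNA genes, 1125 of 2952 antisense genes and 3482 of 21678 protein-coding genes (16.1%) were listed at 0. Receptor and structural families of other organs were among the protein-coding ones. Of 1137 olfactory receptor genes 989 were at 0 in all lines and 1 reached a mean of 1 FPKM, Olfr455 at 0.944 to 1.86 FPKM. Of 351 vomeronasal receptor genes 290 were at 0 and none reached 1 FPKM. Taste receptors (30 of 38 at 0), keratin-associated proteins of hair (50 of 57) and late cornified envelope genes of skin (20 of 36) were alike. Of 697 immunoglobulin and T cell receptor segments 658 were at 0, and Ighm was the one above 1 FPKM, at 8.71, 14.0, 10.9 and 13.2 FPKM in lines 29, 37, 44 and 45. All 8 globin genes were under 1 FPKM, with 3 at 0. Not all families of other tissues were at 0, since 6 of 49 keratins were at 1 FPKM or more, and Krt18, an epithelial keratin, was at 3.60, 2.34, 10.8 and 1.97 FPKM in lines 29, 37, 44 and 45.

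By chromosome, 453 of 920 X-linked protein-coding genes (49.2%) and 11139 of 20495 autosomal ones (54.3%) had a mean of at least 1 FPKM. Their median levels were 7.15 FPKM on the X and 9.17 FPKM on the autosomes. The X median was the lower in each line, with 6.81 against 8.92 FPKM in line 29, 6.87 against 9.001 in line 37, 7.17 against 8.97 in line 44 and 7.14 against 9.21 in line 45. Of 173 Y-linked genes 152 were listed at 0 and 11 (6.36%) had a mean of at least 1 FPKM. Eif2s3y, which supports the growth of spermatogonia, was at 14.4, 16.4, 13.7 and 16.3 FPKM in lines 29, 37, 44 and 45, Ddx3y at 5.59 ± 1.22 FPKM, and Uty and Kdm5d at 2.95 ± 0.566 FPKM and 2.696 ± 0.358 FPKM. Uba1y, a ubiquitin-activating enzyme gene, was the highest of the Y-linked genes at 98.9, 113, 92.9 and 98.7 FPKM. Xist, the RNA of the inactive X, was at 1.37, 0.538, 0.211 and 0.239 FPKM.

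Somatic cell markers of the testis were mostly low, and fibroblast markers were not. GS cells are grown with embryonic fibroblasts, and the study's methods on gene expression describe a step on gelatin that takes them out, given before the RNA sequencing and not repeated for it. All 30 fibroblast genes had a mean of at least 1 FPKM and 23 reached 10 FPKM, with a median of 30.1 FPKM. Col1a1 and Col3a1, collagen genes of connective tissue, were at 136, 43.4, 101.2 and 28.7 FPKM in lines 29, 37, 44 and 45 and at 138, 25.4, 128 and 21.1 FPKM. Sparc, a collagen-binding protein gene, was at 206, 42.6, 159 and 31.4 FPKM, and Lum, a matrix proteoglycan, at 46.1, 8.09, 71.4 and 10.9 FPKM. The surface marker Pdgfra was at 5.29, 2.79, 6.05 and 3.81 FPKM and Pdgfrb at 6.63, 2.47, 4.78 and 1.15 FPKM. Lines 29 and 44 were above lines 37 and 45 for all of these genes. No member of the list was at 0.

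Summed over the 30 fibroblast genes, the level was 1977, 632, 1827 and 498 FPKM in lines 29, 37, 44 and 45. In 28 of the 30 genes lines 29 and 44 were the highest, a pattern that 12.5% of all 12009 genes showed, and 28 of 30 (93.3%) ranged over 2-fold, against 13.3% of all genes. The germ cell genes did not mirror this, with sums of 2403, 2846, 3185 and 2658 FPKM in lines 29, 37, 44 and 45, and in none of the 30 were lines 29 and 44 the highest. The list of undifferentiated spermatogonia summed to 1416, 1623, 2112 and 1681 FPKM. Line 29 was thus the lowest in both germ line sums and line 44 the highest, although both were high in the fibroblast sum. In the mean of lines 37 and 45 alone, 30 of 30 germ cell genes, 35 of 36 genes of undifferentiated spermatogonia, 27 of 31 meiosis genes, 5 of 25 spermatid genes and 19 of 28 pluripotency genes were at 1 FPKM or more. All 30 fibroblast genes were also at 1 FPKM or more in that mean and 16 reached 10 FPKM, so these lines were not free of fibroblast signal.

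**Figure D4:**
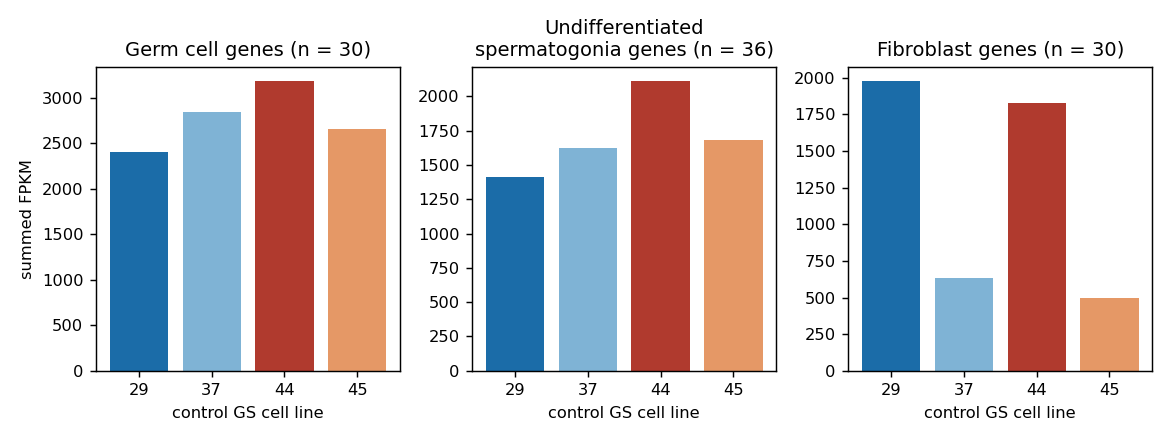
Summed FPKM of 30 germ cell genes, 36 genes of undifferentiated spermatogonia and 30 fibroblast genes in each control line, with bars from 0. The fibroblast sum was 1977 and 1827 FPKM in lines 29 and 44 and 632 and 498 FPKM in lines 37 and 45.

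For the other cells of the testis, 5 of 14 Sertoli cell genes, 1 of 7 Leydig cell genes, 1 of 5 peritubular myoid genes, 3 of 10 macrophage genes and 4 of 10 endothelial genes had a mean of at least 1 FPKM. Trf, transferrin, was the highest of the Sertoli list at 45.6, 44.3, 49.8 and 72.6 FPKM in lines 29, 37, 44 and 45, and Sox9 and Wt1 were at 1.26, 0.892, 5.46 and 2.26 FPKM and 3.15, 3.31, 1.15 and 0.929 FPKM in lines 29, 37, 44 and 45. Gata4 and Amh were under 1 FPKM in every line, at 0.337 to 0.524 FPKM and 0.0183 to 0.0480 FPKM. The Leydig genes Cyp17a1 and Insl3 were listed at 0. Lyz2, a lysozyme of macrophages, was at 44.1, 34.8, 3.36 and 13.2 FPKM, while the defining macrophage genes Csf1r and Adgre1 were at 0.0687 to 0.167 FPKM and 0.123 to 0.668 FPKM. The endothelial list summed to 7.28, 6.86, 20.9 and 18.4 FPKM in lines 29, 37, 44 and 45, with the VEGF receptor gene Flt1 the highest member at 3.78, 3.17, 11.0 and 9.01 FPKM. Cdh5, a cadherin of endothelium, was at 0.611, 0.620, 2.78 and 4.92 FPKM and Kdr, another VEGF receptor, at 0.301, 0.226, 2.93 and 1.43 FPKM. Lines 44 and 45 were both above lines 29 and 37 for Flt1, Cdh5 and Kdr. These were 3 of the 4 members of the list at 1 FPKM or more. The other, Pecam1, did not follow, with line 37 above line 45. Of the members with a mean under 1 FPKM, Tek was also higher in line 37 than in line 45, and Vwf was highest in line 29. The summed macrophage list was 55.1, 46.4, 22.6 and 20.1 FPKM in the same order and 11.1, 11.7, 19.3 and 6.99 FPKM without Lyz2. Cd68, a lysosomal gene, was at 5.08, 6.73, 16.9 and 4.90 FPKM, highest in line 44.

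Between the lines, 1596 of 12009 genes (13.3%) had a highest and a lowest value more than 2-fold apart on the log2(FPKM + 1) scale. Taken in pairs, the lines differed by over 2-fold in 335 genes between lines 37 and 45, in 348 between lines 29 and 37, in 445 between lines 44 and 45, in 545 between lines 29 and 45, in 665 between lines 29 and 44 and in 1025 between lines 37 and 44. The count over all lines was 796 without line 44. Among the 100 most variable protein-coding genes, lines 29 and 44 were the highest pair in 63, lines 44 and 45 in 22, lines 29 and 37 in 14 and lines 29 and 45 in 1. The fibroblast list supplied 17 of these 100 genes and its sum moved with that first pattern; its part in the variation of the other genes was not tested.

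The 20 most variable protein-coding genes were chosen by their spread, so their differences describe the choice. A group of them was higher in both of lines 29 and 37 than in both other lines. Saa3, an acute phase protein gene, was at 39.1, 23.5, 2.24 and 0.426 FPKM in lines 29, 37, 44 and 45. Hp, haptoglobin of the same response, was at 17.1, 11.3, 1.98 and 0.381 FPKM, and the chemokine gene Ccl11 at 20.6, 12.5, 5.19 and 0.733 FPKM. Lines 44 and 45 were the low ones in all of these genes, and line 45 was the lowest.

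A second group was higher in lines 44 and 45. Penk, which encodes the precursor of enkephalins, was at 7.03, 2.72, 94.1 and 41.2 FPKM in lines 29, 37, 44 and 45. Lars2, a mitochondrial leucyl-tRNA synthetase gene, was at 23.5, 20.6, 249.7 and 161 FPKM, and Mrc1, a mannose receptor gene, was at 1.32, 0.824, 16.7 and 6.77 FPKM. For Penk and Mrc1 line 44 was more than double line 45, so the pair was not uniform. In the macrophage list, Lyz2 was lower in lines 44 and 45 and Cd68, like Mrc1, was highest in line 44. Cyp2u1, a cytochrome P450 gene, was low in line 29 alone, at 0.713, 8.07, 25.6 and 13.0 FPKM.

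Other genes set single lines apart or had lines 29 and 44 as the highest pair. Itm2a, an X-linked membrane protein gene, was at 49.1, 5.47, 56.3 and 8.77 FPKM in lines 29, 37, 44 and 45, and Thbs2, a matrix gene of the fibroblast list, at 58.5, 17.5, 21.2 and 3.61 FPKM. For Thbs2, line 44 was close to line 37. Inhba, which encodes the activin subunit, was at 12.7, 5.79, 41.7 and 3.44 FPKM, with line 44 the highest. Gm5751 and Snhg11 were low in line 44, at 9.87, 16.2, 0.413 and 6.73 FPKM and at 9.80, 12.03, 0.444 and 6.07 FPKM. Igfbp5, an IGF-binding protein gene, was low in line 37, at 21.1, 2.27, 26.4 and 19.23 FPKM.

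**Figure D5:**
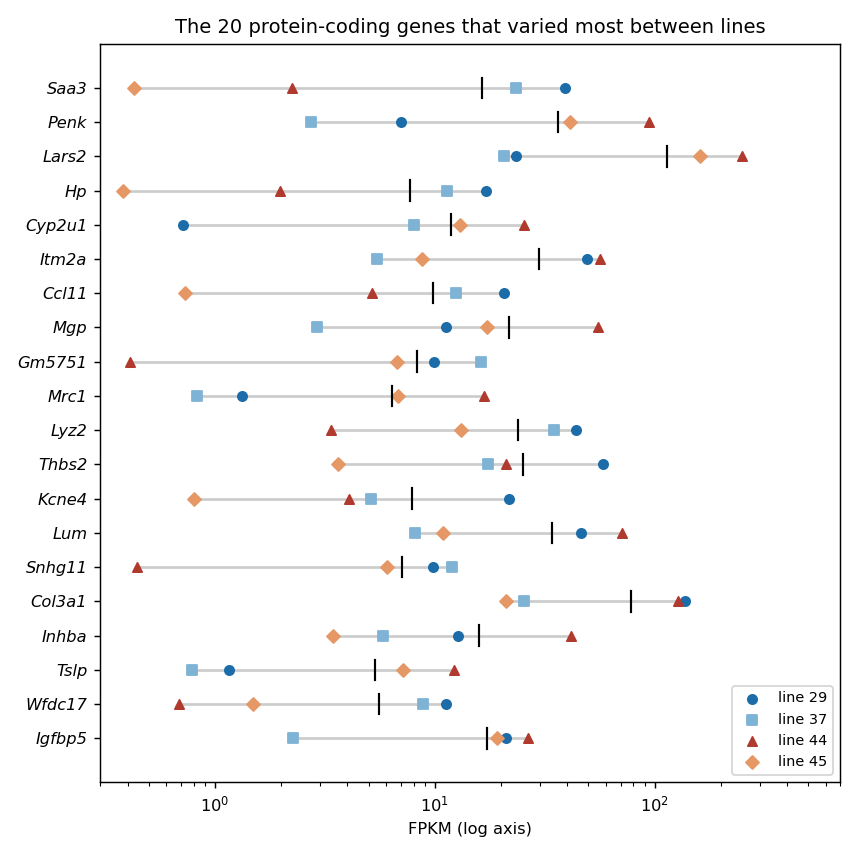
FPKM (log axis) of the 20 protein-coding genes with the largest SD of log2(FPKM + 1), in order of that SD, with a point per control line, a black tick at the mean and a grey bar from lowest to highest. Saa3 ran from 0.426 FPKM in line 45 to 39.1 FPKM in line 29, and Col3a1 had lines 29 and 44 together above lines 37 and 45.

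The only grouping of the control lines that the labels give is their title style, and it was used to ask whether lines 29 and 37 differed as a pair from lines 44 and 45. Lines 44 and 45 were also the deeper libraries. With limma on log2(FPKM + 1) and Benjamini-Hochberg adjustment, 0 of 12009 genes (0%) passed an adjusted p of 0.05, the lowest adjusted p being 0.0622. Without adjustment, 2239 genes (18.6%) had a p under 0.05, and limma-voom on recovered reads also called 0, with 2090 genes at that unadjusted level. In 29.6% of genes lines 44 and 45 were both above lines 29 and 37, and in 24.2% both were below. The handling of the libraries, their depth and the origin of the lines cannot be told apart in this grouping.

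The genes nearest the threshold are described by their values. Rmrp, the RNA of a mitochondrial RNA-processing ribonuclease, was at 1.75, 0.856, 30.8 and 25.4 FPKM in lines 29, 37, 44 and 45. Its difference on the log2(FPKM + 1) scale was 3.68 ± 0.24 (SE), with a limma adjusted p of 0.0622. Lars2 differed by 3.13 ± 0.23 (adjusted p by limma 0.0622) and Gm15564 by 3.35 ± 0.27 (adjusted p by limma 0.0771). These 3 genes passed under some alternatives, and 32 genes passed when line 45 was left out. Of the marker genes, Etv5 differed by 1.48 ± 0.16 (adjusted p by limma 0.0936), Gfra1 by 0.67 ± 0.13 (adjusted p by limma 0.150) and Ddx4 by 0.41 ± 0.17 (adjusted p by limma 0.269). None of these differences passed the threshold. The remaining marker, Zbtb16, did not separate the pairs, at 50.5, 83.7, 66.4 and 61.3 FPKM in lines 29, 37, 44 and 45. In the list of undifferentiated spermatogonia, 15 of 33 genes had both of lines 44 and 45 above both of lines 29 and 37 and 5 had both below, and the median difference of the 33 was 0.43, beside 0.02 over all genes tested. In the germ cell list the counts were 10 and 5 of 30, with a median of 0.04.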

How the data were processed

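RNA-seq was performed on 8 GS cell lines, and the 4 control columns were used. The authors trimmed single 76-base reads with cutadapt, mapped them to mm10 with STAR and counted them per gene with HTSeq. The labels name cutadapt 3.4, STAR 2.7.9a and HTSeq 0.13.5 for lines 29 and 37 and cutadapt 1.16, STAR 2.6.0c and HTSeq 0.11.2 for lines 44 and 45. The deposited values are FPKM scaled by the authors to a library size. The study's methods speak of TPM, but the column sums differ between lines. Columns with a log2 fold change and an adjusted p-value from a comparison by the authors are part of the deposited table, and neither was used. The 4 columns of the other lines were left out.

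Gene positions came from GENCODE M21 on GRCm38, the mm10 assembly, where 30946 of 31010 identifiers were found. Because FPKM steps are whole reads, reads were recovered within 0.02 reads for 98.23% of the 22876 genes above 0, which gave the depth and counting SD. Such limits cover counting error only, since PCR duplicates were not marked by molecular identifiers. Limma 3.58.1 in R 4.3.3 (lmFit, eBayes with trend) was fitted to log2(FPKM + 1) of the 12009 genes whose mean reached 1 FPKM, with the title style as the only term, two-sided. A pseudocount of 1 understates differences of low genes. The p-values measure only the spread between these lines. In simulated data for this comparison with 11796 genes, the fit recovered 90 of 100 genes changed 2-fold and 100 of 100 changed 4-fold, with 15 false calls. Every simulated gene had the same spread beyond counting, and the changed genes had means of 10 FPKM or more. In the real lines the SD of a gene on the log2(FPKM + 1) scale was 0.10 at the 10th percentile and 0.51 at the 90th. The recovery therefore does not give the share of real differences that the fit would find.

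The members and gene lists were chosen with earlier results of these data known. Named genes were fixed by rule as the 4 markers, the 25 highest, up to 8 highest and 5 lowest of each list, receptors for medium factors (1 of these is not reported here), the 20 most and 10 least variable, up to 5 largest pair differences past the threshold in each direction, the 10 highest transcription factor and receptor genes and 5 sex-linked genes. The genes Asz1, Dmc1, Dnd1, Erbb2, Gtsf1, H19, Ighm, Lifr, Malat1, Mov10l1, Nanos2, Nanos3, Rara, Rec8, Rmrp, Sox2, Tdrd1, Tdrd5, Tdrd9, Uba1y and Utf1 were named after their values were seen, as were Tex19.2 and Tuba3b, given only as copies of other genes. A comparison of promoters by level of their gene was void, because only 77.3% of protein-coding genes matched the promoter table by symbol, under the 80% required. The alternatives were another pseudocount, other filters, TPM scaling, quantile normalization, limma-voom on recovered reads and leaving out each line. Using lines 37 and 45 alone was added after seeing the data.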

Additional observations from a re-analysis of the deposited data

Results flagged for a closer look

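A value stood apart from the other 3 lines by Dixon's criterion in 14 of 202 sets of 4 values. The nominal rate of chance flags is about 1 in 20. That rate does not apply to genes chosen by their spread or listed at 0 in the other lines. In line 44, Itga5 was at 44.6 FPKM, Ifnar1 at 61.1 FPKM, Cd68 at 16.9 FPKM, mt-Co2 at 0.0446 FPKM and Fgf4 at 0.00956 FPKM, above the other lines, and for mt-Co2 and Fgf4 the other lines were listed at 0. In line 37, Dmrt1 was at 171 FPKM, Kat5 at 17.5 FPKM, Fgfr4 at 0.577 FPKM and mt-Co3 at 0.0511 FPKM, above the others. For mt-Co3 the other lines were listed at 0. Kat5 was among the genes chosen for small spread. In line 29, Taf7l was at 186 FPKM, Syce2 at 60.5 FPKM and Tcf7 at 57.8 FPKM, below the others. In line 45, Tgfbr1 was at 12.4 FPKM and 20716 genes were above 0, both the highest, and that library held the most reads.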

How the results depend on the processing

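The count of genes differing between lines 29 and 37 and lines 44 and 45 was 0 and stayed at 0 with a pseudocount of 0.1, with no filter and with limma-voom. It was 3 at a mean of at least 5 FPKM and 3 after rescaling to TPM (Rmrp, Lars2 and Gm15564 in both), and 2 after quantile normalization (Rmrp and Lars2), and it ranged from 0 to 32 when 1 line was left out. Without line 44 it was 5 (Rmrp, Lars2, Gm15564, Saa3 and Hp) and without line 45 it was 32. In these fits the lone line was assumed to vary like the other pair. The count of genes over 2-fold apart was 1596 as reported, 2517 with a pseudocount of 0.1, 854 at a mean of at least 5 FPKM and 796 to 1383 with 1 line left out, the lowest without line 44. It was 345 in lines 37 and 45 alone, where only 1 pair of lines was left to differ. Genes listed at 0 numbered 8134, and 12593 were under 0.1 FPKM in every line. The number at 1 FPKM or more moved by less than 1.5 times under all its alternatives, from 10473 at a threshold of 2 FPKM to 13446 at 0.5 FPKM. Rescaling to TPM multiplied the lines by factors of 0.95 to 1.039 and changed a gene mean by at most 5.01%. With changes this small, the mean of each of 207 named genes stayed within 1 SD. Leaving out 1 line moved the mean by over 1.5 times in 22 of the 172 named genes at 1 FPKM or more, 6 of them without line 29, 1 without line 37, 13 without line 44 and 2 without line 45. The largest of these moves were Bc1 from 1867 to 856 FPKM without line 29 and, without line 44, Inhba from 15.9 to 7.31 FPKM, Mrc1 from 6.40 to 2.97 FPKM, Penk from 36.3 to 17.0 FPKM and Itga5 from 17.6 to 8.64 FPKM. No paired analysis was possible because each line has its own number and no number is shared between groups.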
